A study of Mus musculus with 10 samples.

Results

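The genes described here encode the subunits of the proteasome, the barrel-shaped protease that degrades ubiquitin-tagged proteins. They were taken by symbol from the protein-coding genes of the mouse RefSeq annotation, as every gene named Psma, Psmb, Psmc, Psmd or Psme followed by a number, without Psmb8, Psmb9 and interacting proteins whose symbols hold "ip". This gave 42 of 21883 genes. They comprise 8 alpha and 9 beta subunits of the catalytic core, 6 ATPases and 14 non-ATPase genes of the regulatory particle, and 5 activator genes. The choice used no measured value.

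In the proteasome, rings of alpha subunits form the gate of the core and rings of beta subunits carry the active sites. The regulatory particle binds ubiquitin chains, and its ATPases unfold the substrate and feed it through the gate. Proteins that fail to fold in the endoplasmic reticulum (ER) are pulled back to the cytosol and destroyed by the proteasome, a route called ER-associated degradation (ERAD). XBP-1s, the transcription factor made when the ER stress sensor IRE1 (gene Ern1) splices the Xbp1 mRNA, is known for driving genes of ER folding and ERAD, while the best known common regulator of the proteasome genes themselves is Nfe2l1.

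Binding of XBP-1 was measured in C57BL/6J mouse liver by chromatin immunoprecipitation and sequencing, with an antibody raised against Xbp-1s. The 8 immunoprecipitated libraries were 2 from fed wild-type mice (Fed), 2 from fasted wild-type mice (Fasted), 2 from the wild-type controls of the knockout experiment (WT) and 2 from mice with a liver-specific knockout of Ern1 (Ern1-LKO). The labels give neither the length of the fast, the feeding state of the WT and Ern1-LKO mice, their ages, nor the promoter that drove the deletion. They also do not say which libraries came from separate animals, so the spread between replicates may be technical. The knockout is of Ern1, the gene of the splicing enzyme, and not of Xbp1.

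The authors called peaks in each library against an input library of liver DNA, 1 input for Fed and Fasted and another for WT and Ern1-LKO, so groups were compared only within those pairs. The lists differed widely in length. The Fed lists held 82975 and 47357 peaks and the Fasted lists 53973 and 19237. The WT lists held 6258 and 30327, the Ern1-LKO lists 698 and 30796. Kept tags ranged from 4.34M to 17.4M (M, 1e6) and did not follow the order of list length. The short lists of Fasted replicate 2, WT replicate 1 and Ern1-LKO replicate 1 stood apart from their partners, and pair counts that rest on them are given beside the count of the longer list. A peak is assigned to a gene here when its summit lies between 5 kb before and 5 kb after the gene span (a window peak). Where the annotation gave a start, a peak within 1 kb of it is called a start peak. The fold of a peak is the authors' ratio of pileup to local background, and its percentile is its place in its own list by −log10 q. Both describe peaks within a list.

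The DNA just upstream of 5 members and of Herpud1, an ERAD gene, is printed here because they mark the range of the results. Psme4 and Psmd11 were among the members called in the most libraries and hold CCACG. Psmd6 was called as often and holds neither motif searched for here in this stretch. Psma1 was called in the Fed pair and in no Fasted library, and Psmb10 had no start peak in any library although it holds the palindrome CCACGTGG. The sequences are the 250 bases before the annotated start on the gene's own strand, from RefSeq (GRCm38.p6), in mm10 coordinates. Capitals mark ACGTG, the core of unfolded protein response (UPR) elements, and CCACG, a part of the ER stress element. Both were marked on either strand, so that the reverse strand reads CACGT and CGTGG.
Psma1, chr7:114276117-114276366, minus strand: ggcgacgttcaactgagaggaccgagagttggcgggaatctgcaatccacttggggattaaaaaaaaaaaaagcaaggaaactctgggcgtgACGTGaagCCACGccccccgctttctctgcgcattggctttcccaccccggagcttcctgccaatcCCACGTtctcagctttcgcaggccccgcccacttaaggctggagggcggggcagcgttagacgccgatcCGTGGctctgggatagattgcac
Psmb10, chr8:105938393-105938642, minus strand: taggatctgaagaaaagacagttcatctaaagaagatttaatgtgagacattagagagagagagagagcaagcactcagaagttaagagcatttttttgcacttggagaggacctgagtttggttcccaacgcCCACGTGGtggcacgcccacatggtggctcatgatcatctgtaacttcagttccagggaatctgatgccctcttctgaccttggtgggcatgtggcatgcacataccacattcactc
Psmd6, chr14:14120946-14121195, minus strand: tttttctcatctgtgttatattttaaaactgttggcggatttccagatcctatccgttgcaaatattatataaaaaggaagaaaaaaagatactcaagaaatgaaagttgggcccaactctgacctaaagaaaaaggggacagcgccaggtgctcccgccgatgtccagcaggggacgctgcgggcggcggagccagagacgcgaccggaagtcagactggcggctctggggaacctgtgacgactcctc
Psmd11, chr11:80428365-80428614, plus strand: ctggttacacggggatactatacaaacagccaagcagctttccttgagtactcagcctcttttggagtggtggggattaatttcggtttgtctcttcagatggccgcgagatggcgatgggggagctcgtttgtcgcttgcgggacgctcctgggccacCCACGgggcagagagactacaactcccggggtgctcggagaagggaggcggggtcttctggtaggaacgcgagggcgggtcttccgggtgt
Psme4, chr11:30771525-30771774, plus strand: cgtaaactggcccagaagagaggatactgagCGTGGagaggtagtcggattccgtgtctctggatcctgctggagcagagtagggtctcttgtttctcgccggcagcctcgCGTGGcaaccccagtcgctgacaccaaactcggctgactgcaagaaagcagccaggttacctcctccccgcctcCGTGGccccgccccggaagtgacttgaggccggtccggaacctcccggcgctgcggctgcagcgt
Herpud1, chr8:94386179-94386428, plus strand: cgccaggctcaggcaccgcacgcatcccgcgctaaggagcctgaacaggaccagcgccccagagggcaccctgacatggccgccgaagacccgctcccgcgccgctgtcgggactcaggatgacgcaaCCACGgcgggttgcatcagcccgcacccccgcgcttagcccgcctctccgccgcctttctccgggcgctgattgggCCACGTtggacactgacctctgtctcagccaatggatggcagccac

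Proteasome genes were called more often than all genes in 6 of the 8 libraries. In both Fed libraries, 38 of the 42 had a window peak, against 68.7% of all protein-coding genes. In both Fasted libraries 18 did, against 43.2%, a share near the background. The WT pair shared 12 members (background 18.3%) and the Ern1-LKO pair none (background 3.54%). Per library, the members called were 40 and 38 in the Fed pair, 39 and 18 in the Fasted pair, 13 and 36 in the WT pair, and 0 and 32 in Ern1-LKO. As shares these were 95.2%, 90.5%, 92.9%, 42.9%, 31.0%, 85.7%, 0% and 76.2%, beside 76.1%, 71.2%, 73.1%, 43.6%, 19.6%, 65.0%, 3.58% and 62.4% of all genes in the same order. The share lay below that of all genes in Fasted replicate 2 and Ern1-LKO replicate 1. These shares describe each library, and no test of the members as a set was made.

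**Figure D1:**
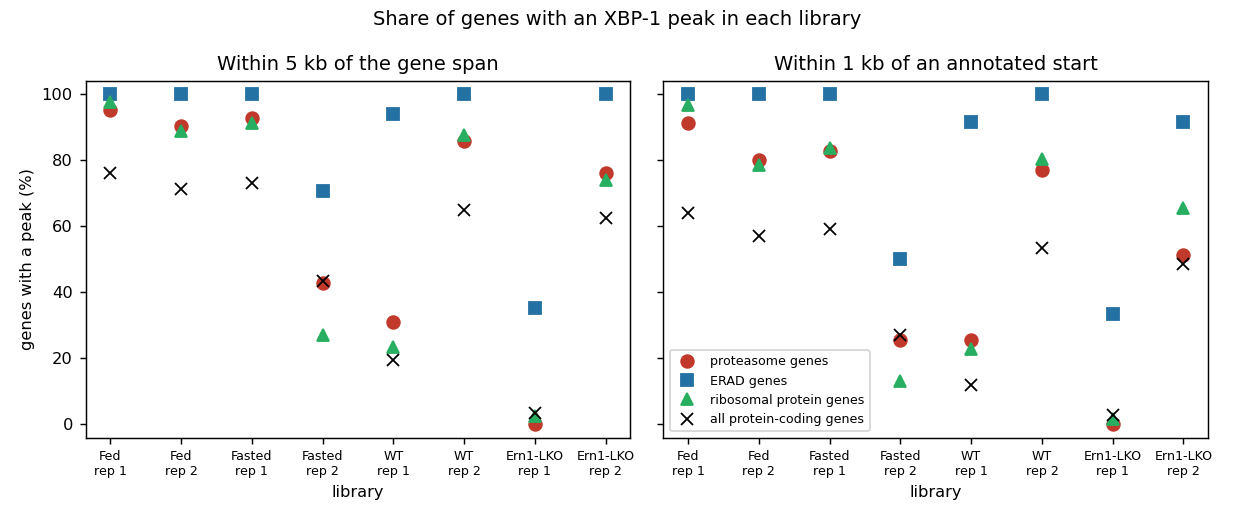
Percentage of genes with a peak within 5 kb of the gene span (left) and within 1 kb of an annotated start (right) in each of the 8 libraries, for proteasome genes, ERAD genes, ribosomal protein genes and all protein-coding genes. Proteasome genes reach 95.2% in Fed replicate 1 and 0% in Ern1-LKO replicate 1, where 35.3% of ERAD genes have a window peak.

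The number of members called did not separate the groups of either comparison. Fed libraries averaged 39 ± 1.41 members and Fasted libraries 28.5 ± 14.8 (SD, n = 2 each), a difference of 10.5 that came from 1 library. Without Fasted replicate 2 the difference was 0, and without Fasted replicate 1 it was 21. WT libraries averaged 24.5 ± 16.3 members and Ern1-LKO libraries 16 ± 22.6 (SD, n = 2 each). That difference of 8.5 turned to −3 without WT replicate 2 and to −7.5 without Ern1-LKO replicate 1. With 2 libraries against 2, an exact two-sided permutation test cannot give a p below 0.33. List length moved with these counts. At the 19237 strongest peaks of each list, 37 and 30 members were called in Fed (88.1% and 71.4%, beside 58.6% and 56.6% of all genes) and 34 and 18 in the Fasted pair (81.0% and 42.9%, beside 57.4% and 43.6%). At the 6258 strongest peaks the counts were 27 and 22 in the Fed pair, 18 and 8 in the Fasted pair, 13 and 21 in the WT pair and 8 in Ern1-LKO replicate 2. As shares these were 64.3% and 52.4% (31.4% and 29.5% of all genes), 42.9% and 19.05% (30.9% and 19.05%), 31.0% and 50% (19.6% and 31.0%), and 19.05% (29.5%). At this length Fasted replicate 2 was level with all genes and Ern1-LKO replicate 2 below them. Tag depth and enrichment of single libraries were not tested for their part in this.

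Genes called in 1 condition alone were rare. Psma1, an alpha subunit, was the only member with a peak in the Fed pair and none in the Fasted pair, a pattern that 1.2% of all genes showed. No member had the opposite pattern (0.0731% of all genes). No member was called in both WT libraries while each Ern1-LKO library lacked it (0.896% of all genes), and none the other way (0% of all genes). These counts rest on the short lists. With Fasted replicate 1 left out, 20 members counted as called in Fed alone, and with Ern1-LKO replicate 2 left out, 12 counted as called in WT alone. Of all genes, the remaining Fasted replicate 2 called 43.6% and the remaining Ern1-LKO replicate 1 called 3.58%. Shares of all genes under these rules were not counted, so the counts show nothing particular to the members. No member was called in all 8 libraries, which 2.64% of all genes were. Psma3, Psma4, Psma7, Psmd3, Psmd6, Psmd11 and Psme4 were called in every library but Ern1-LKO replicate 1, that is 7 of 42 beside 13.9% of all genes. Of the others, 15 were called in 6 libraries, 10 in 5, 4 in 4, 3 in 3, 1 in 2 and 2 in none.

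**Figure D2:**
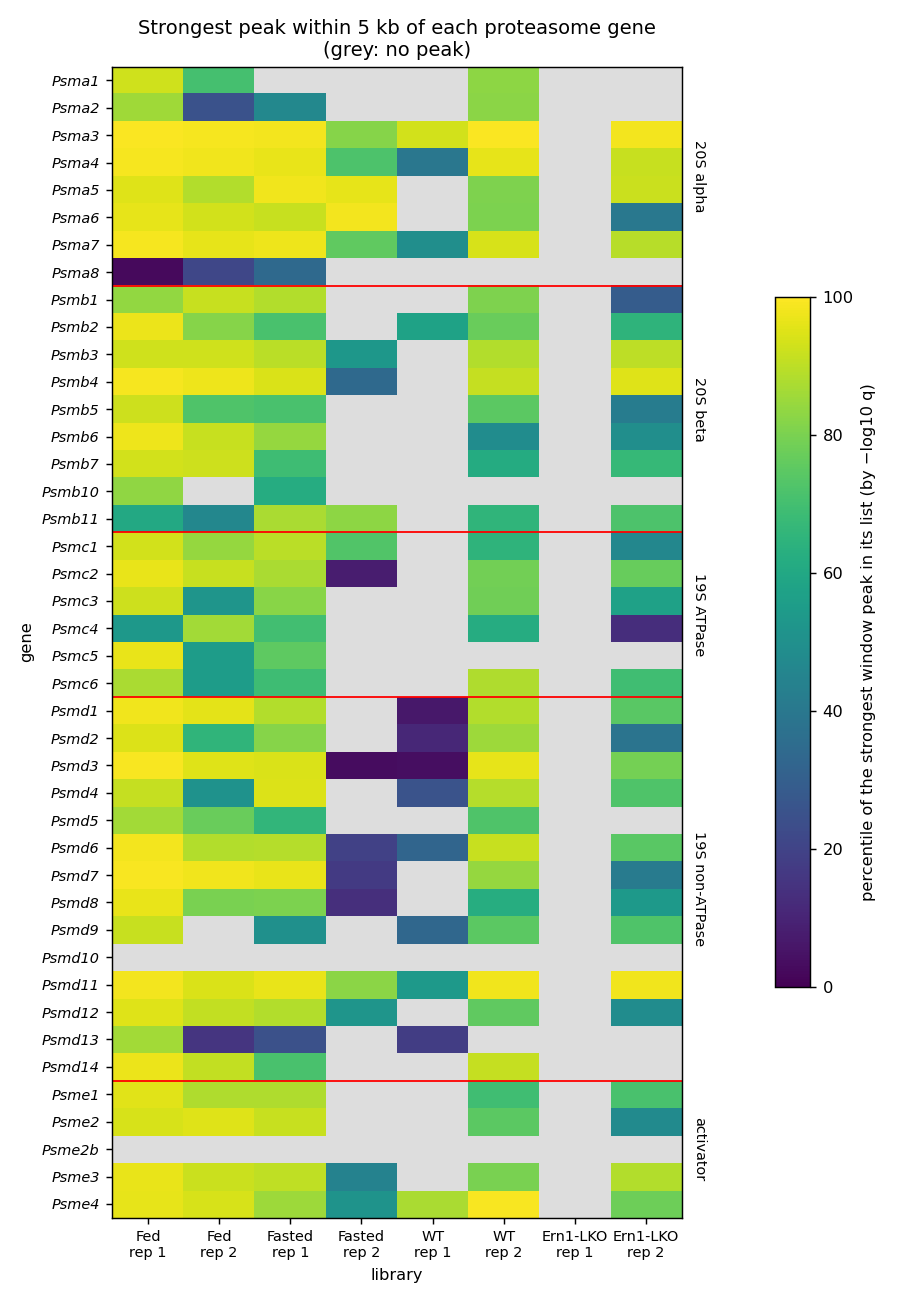
Percentile, within its own peak list ranked by −log10 q, of the strongest peak within 5 kb of each of the 42 proteasome genes (rows, grouped by role between red lines) in the 8 libraries (columns), with grey where no peak was called. Ern1-LKO replicate 1 is grey throughout, Psmd10 and Psme2b are grey in every library, and Psma3 is near the top of the scale in most.

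Among the alpha subunits, all 8 had a window peak in the Fed pair, 5 in the Fasted pair and 3 in the WT pair. The shares of all genes were 68.7%, 43.2% and 18.3%. Fasted replicate 1 alone called 7 (73.1% of all genes) and WT replicate 2 alone 7 (65.0% of all genes). Psma3, a subunit of the alpha ring, held the highest mean percentile of any member. Its peak had folds of 12.1 and 13.8 in the Fed pair, 16.4 and 7.46 in the Fasted pair, 10.3 and 38.3 in the WT pair, and 18.9 in Ern1-LKO replicate 2. It ranked 358 and 585 in the Fed pair, 852 and 3458 in the Fasted pair, 418 and 137 in the WT pair and 589 in Ern1-LKO replicate 2. Psma3 was thus high in both comparisons and low for its own range in Fasted replicate 2. The Ern1-LKO library that called it had a fold between those of the WT libraries. The lists differ in length, and by percentile the Ern1-LKO peak (98.1) also lay between the WT peaks (93.3 and 99.6). The summit lay between 277 and 340 bp downstream of the annotated start in all 7 libraries. The RefSeq span of Psma3 (chr12:70969283-70995877) begins further upstream than that start.

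Psma4 had folds of 9.26 and 13.9 in the Fed pair, 16.4 and 7.93 in the Fasted pair, 4.30 and 13.9 in the WT pair and 13.4 in Ern1-LKO replicate 2. For Psma7 the folds were 8.47 and 11.9 in the Fed pair, 15.1 and 8.15 in the Fasted pair, 4.31 and 12.7 in the WT pair and 14.1 in Ern1-LKO replicate 2. For both genes WT replicate 1 gave the lowest value, and Fed and Fasted values overlapped. Psma4 summits stayed within 166 to 258 bp of the start, whereas Psma7 summits ran from −581 to 511 bp. The Psma7 start lies 19 bp from the divergent neighbour Ss18l1, so a peak there cannot be given to 1 of the genes.

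Psma1 had folds of 4.88 and 5.87 in the Fed pair, 8.19 in WT replicate 2 and no peak in the other 5 libraries. Its Fed peaks ranked 6034 and 13987, and its summits lay 167 and 197 bp downstream of the start in Fed and 186 bp in WT replicate 2. With a fold limit of 5 the Fed-only pattern of Psma1 was lost, since Fed replicate 1 fell below it. In Psma5 and Psma6 the strongest window peak could lie away from the start. In Psma5 the strongest window peak lay outside the gene in 6 libraries, within 1 kb of an end of the Sort1 span. Its folds were 7.96 and 8.71 in the Fed pair, 19.3 and 13.4 in the Fasted pair, 9.26 in WT replicate 2 and 15.1 for Ern1-LKO replicate 2. The gene's own start peak had folds of 4.91 and 5.72 in the Fed pair, 8.71 in Fasted replicate 1, 6.69 in WT replicate 2 and 6.82 for Ern1-LKO replicate 2. In Psma6 the start peak had folds of 6.74 and 9.93 in the Fed pair, 11.8 in Fasted replicate 1, 7.98 in WT replicate 2 and 5.48 for Ern1-LKO replicate 2, and Fasted replicate 2 instead called a peak of fold 14.1, rank 363, inside the gene 16312 bp from the start. Psma8, the alpha subunit of the testis proteasome, had folds of 3.13 and 5.28 in the Fed pair and 5.73 in Fasted replicate 1 and no peak elsewhere.

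Of the 9 beta subunits, 8 had a window peak in the Fed pair, 3 in the Fasted pair and 1 in the WT pair. The shares of all genes were 68.7%, 43.2% and 18.3%. Fasted replicate 1 alone called 9 (73.1% of all genes) and WT replicate 2 alone 8 (65.0% of all genes). Psmb4, a structural subunit without an active site, led them at its start. Its folds were 8.47 and 11.9 in the Fed pair, 13.5 and 5.38 in the Fasted pair, 11.3 in WT replicate 2 and 15.9 for Ern1-LKO replicate 2, with summits 147 to 224 bp downstream. The value of the Ern1-LKO library was above that of the WT library, with 1 library on each side.

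The catalytic subunits Psmb5 (chymotrypsin-like), Psmb6 (caspase-like) and Psmb7 (trypsin-like) were called in the same 5 libraries each, those with the longer lists. Psmb5 start peaks had folds of 6.32 and 7.43 in the Fed pair, 8.001 in Fasted replicate 1, 7.61 in WT replicate 2 and 6.05 for Ern1-LKO replicate 2. The window folds of Psmb7 were 6.02 and 10.4 in the Fed pair, 7.21 in Fasted replicate 1, 6.29 in WT replicate 2 and 8.19 for Ern1-LKO replicate 2. Psmb6 had start folds of 7.11 and 5.35 in the Fed pair, 4.81 in Fasted replicate 1 and 3.51 in WT replicate 2. In 4 libraries its strongest window peak lay within 1 kb of an end of the span of the neighbouring Gltpd2. None of the 3 was called in Fasted replicate 2, WT replicate 1 or Ern1-LKO replicate 1.

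Psmb1, Psmb2 and Psmb3 are the remaining constitutive beta subunits. Psmb2 was the only beta subunit called in WT replicate 1, with a fold of 4.35 there and 6.78 to 7.89 in the 5 other libraries that called it. Psmb3 had window folds of 5.85 and 9.82 in the Fed pair, 12.3 and 8.15 in the Fasted pair, 10.1 in WT replicate 2 and 14.5 for Ern1-LKO replicate 2. In Fasted replicate 2 that peak lay inside the gene, 6003 bp from the start. In the other libraries that called Psmb3 it lay outside the gene, within 1 kb of an annotated start of Pcgf2. Psmb3 had a start peak in Fed replicate 1 alone, with a fold of 2.96. In 5 libraries the strongest window peak of Psmb1 lay within 1 kb of an end of the Tbp span.

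Psmb10 and Psmb11 are not part of the constitutive core of most cells. Psmb10, the immunoproteasome counterpart of Psmb7, had window peaks in Fed replicate 1 (fold 3.76) and Fasted replicate 1 (fold 6.81) and no start peak in any library. The second of these lay 4991 bp from the gene, just inside the 5 kb limit, as the nearest summit outside it lay 5004 bp from Psme3 in Fasted replicate 1. Psmb11, the beta subunit of the thymus, had window peaks in 6 libraries. Their folds were 4.81 and 5.75 in the Fed pair, 14.6 and 11.8 in the Fasted pair, 7.45 in WT replicate 2 and 10.1 for Ern1-LKO replicate 2. These peaks lay 2289 to 2841 bp outside the gene. A start peak of Psmb11 was called in Fed replicate 1 alone (fold 3.44). Psmb8 and Psmb9, the other immunoproteasome subunits, which the rule leaves out, both had window peaks in both Fed libraries and neither in both Fasted libraries.

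All 6 ATPases of the regulatory particle (Psmc1 to Psmc6) had a window peak in the Fed pair, 2 in the Fasted pair and 0 in the WT pair. The shares of all genes were 68.7%, 43.2% and 18.3%. Fasted replicate 1 alone called 6 (73.1% of all genes) and WT replicate 2 alone 5 (65.0% of all genes). None of the 6 was called in WT replicate 1, which called 19.6% of all genes. Psmc2 had start folds of 6.99 and 9.44 in the Fed pair, 12.02 and 4.63 in the Fasted pair, 7.77 in WT replicate 2 and 9.70 for Ern1-LKO replicate 2. Psmc2 has 2 annotated starts 1472 bp apart, and its summits fell at both. In the Fed pair and WT replicate 2 they lay 149, 173 and 111 bp inside the second start. In the Fasted pair and Ern1-LKO replicate 2 they lay 296, 280 and 180 bp upstream of the first, where the span of Dnajc2 ends 11 bp away. Psmc1 start peaks had folds of 5.81 and 7.88 in the Fed pair, 10.5 in Fasted replicate 1, 6.46 in WT replicate 2 and 6.21 for Ern1-LKO replicate 2. Psmc5 was called in 3 libraries, Fed (7.46 and 5.58) and Fasted replicate 1 (7.68), and in neither WT nor Ern1-LKO libraries. Psmc3, Psmc4 and Psmc6 had window folds between 3.19 and 11.1 in the 5 libraries that called them. The strongest window peak of Psmc4 and of Psmc6 lay at the start in Fed replicate 1 alone. In the other libraries it lay further inside Psmc4, and for Psmc6 outside the gene, within 1 kb of the annotated start of Styx. Start folds were 3.19 to 6.60 for Psmc4 and 4.02 to 6.34 for Psmc6.

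The 14 non-ATPase genes were the most often called in WT replicate 1. That library called 8 of the 14, beside 5 of the other 28 members and 19.6% of all genes. In both WT libraries 7 non-ATPase genes had a window peak, in both Fed libraries 12 and in both Fasted libraries 6. The shares of all genes were 18.3%, 68.7% and 43.2%. Fasted replicate 1 alone called 13 (73.1% of all genes) and WT replicate 2 alone 12 (65.0% of all genes). Psmd11, a lid subunit, had start folds of 7.18 and 9.06 in the Fed pair, 11.1 and 6.71 in the Fasted pair, 4.45 and 16.3 in the WT pair and 18.9 in Ern1-LKO replicate 2. It ranked 648 in WT replicate 2 and 629 for Ern1-LKO replicate 2. With Psma3 it was 1 of 2 members among the 698 strongest peaks of the latter, 4.76% of members beside 3.83% of all genes. Summits of Psmd11 lay 224 to 361 bp downstream of the start.

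Psmd6, another lid subunit, had folds of 9.10 and 9.78 in the Fed pair, 12.04 and 5.09 in the Fasted pair, 4.61 and 12.4 in the WT pair and 9.97 in Ern1-LKO replicate 2, with summits 182 to 268 bp downstream. Psmd3, also of the lid, had window folds of 9.02 and 10.2 in the Fed pair, 12.3 and 3.23 in the Fasted pair, 2.94 and 11.7 in the WT pair and 8.91 in Ern1-LKO replicate 2. In all 3 genes the Fasted replicate 2 and WT replicate 1 values were the lowest, and the Ern1-LKO value lay above WT replicate 1. For Psmd6 and Psmd3 it lay below WT replicate 2, and for Psmd11 above it.

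Psmd1 and Psmd2 form the scaffold of the base. Psmd1 had folds of 6.39 and 10.2 in the Fed pair, 9.58 in Fasted replicate 1, 2.84 and 9.91 in the WT pair and 8.80 in Ern1-LKO replicate 2. Psmd2 had folds of 5.35 and 5.72 in the Fed pair, 7.98 in Fasted replicate 1, 3.56 and 9.46 in the WT pair and 5.69 in Ern1-LKO replicate 2. Psmd4, a ubiquitin receptor, had start folds of 4.81 and 4.15 in the Fed pair, 11.3 in Fasted replicate 1, 3.73 and 9.37 in the WT pair and 8.06 in Ern1-LKO replicate 2. Its summit was the most fixed of any member called at its start in at least 4 libraries, between 161 and 206 bp in 6 libraries.

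Psmd14, the deubiquitinase of the lid, had folds of 8.24 and 9.20 in the Fed pair, 7.33 in Fasted replicate 1 and 13.3 in WT replicate 2, and was called in neither Ern1-LKO library. Its partner Psmd7 had window folds of 9.98 and 12.8 in the Fed pair, 16.0 and 4.61 in the Fasted pair, 6.69 in WT replicate 2 and 5.24 for Ern1-LKO replicate 2. Psmd12, Psmd8 and Psmd13 are further lid subunits. Psmd12 and Psmd8 were called in 6 libraries each, with window folds of 5.96 to 11.2 and 5.17 to 10.5, and Psmd13 in 4, with folds of 3.76 to 4.83. The strongest Psmd8 window peak lay at the start in Fed replicate 1 alone and elsewhere outside the gene, nearest to Spred3 or Ggn. Psmd8 start peaks, in 4 libraries, had folds of 3.52 to 6.52. The assembly chaperones Psmd5, Psmd9 and Psmd10 bind the ATPase ring while it forms and leave the finished particle. Psmd5 was called in 4 libraries (folds 4.27 to 6.93), Psmd9 in 5 (4.37 to 11.1) and Psmd10, on the X chromosome, in none. Psmd9 had start peaks in Fed replicate 1 (fold 5.82) and Fasted replicate 1 (fold 5.56) alone. In the WT pair and Ern1-LKO replicate 2 its strongest window peaks lay 1098 to 3930 bp outside the gene.

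Activators open the core gate without ATP. Psme4, which encodes the nuclear activator PA200, had folds of 8.04 and 11.002 in the Fed pair, 11.2 and 6.98 in the Fasted pair, 7.26 and 24.0 in the WT pair and 9.69 in Ern1-LKO replicate 2. It ranked 790 and 278 in the WT pair and 6799 in Ern1-LKO replicate 2. The summit lay within −39 to 38 bp of the start in the 6 wild-type libraries and at 288 bp in Ern1-LKO replicate 2. The 1 Ern1-LKO summit was thus outside the range of the others, with no replicate. The gene Erlec1, whose product takes part in ERAD, overlaps the far end of Psme4 and not its start.

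Psme1 and Psme2 encode the interferon-inducible activator PA28 and lie close together. Psme1 had start folds of 7.67 and 9.09 in the Fed pair, 12.2 in Fasted replicate 1, 6.92 in WT replicate 2 and 9.28 for Ern1-LKO replicate 2, with summits from −16 to 177 bp. The folds of Psme2 were 6.37 and 11.1 in the Fed pair, 12.4 in Fasted replicate 1, 6.79 in WT replicate 2 and 5.64 for Ern1-LKO replicate 2, with summits 717 to 855 bp upstream of the start, where the neighbour Rnf31 lies 612 bp from the gene. Psme3, a nuclear activator related to PA28, had folds of 5.97 and 9.04 in the Fed pair, 10.7 and 5.17 in the Fasted pair, 7.30 in WT replicate 2 and 11.3 for Ern1-LKO replicate 2. Psme2b was called in none.

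Start peaks were counted in the same way. An annotated start was at hand for 35 members and 17491 genes. Psma8, Psmb1, Psmb2, Psmb7, Psmc3, Psmd3 and Psmd7 had no entry. In both Fed libraries 28 of 35 members had a start peak, against 55% of all genes with a start. In both Fasted libraries 9 did (26.8% of all genes), in both WT libraries 9 (11.3%) and in both Ern1-LKO libraries 0 (2.78%). Every library but Ern1-LKO replicate 1 called a start peak in 6 members, beside 7.96% of all genes. Per library the counts were 32 and 28 in the Fed pair, 29 and 9 in the Fasted pair, 9 and 27 in the WT pair, and 0 and 18 in Ern1-LKO. As shares these were 91.4%, 80%, 82.9%, 25.7%, 25.7%, 77.1%, 0% and 51.4%, beside 63.9%, 57.0%, 59.2%, 27.03%, 11.98%, 53.4%, 2.83% and 48.5% of all genes with a start. Fasted replicate 2 and Ern1-LKO replicate 2 were thus near the background at the starts. The median fold of the members' start peaks was 6.35 and 8.94 in the Fed pair, 10.5 and 6.71 in the Fasted pair, 4.31 and 7.77 in the WT pair and 9.49 in Ern1-LKO replicate 2. Over all genes with a start peak the medians were 5.59 and 8.33, 10.4 and 6.76, 5.04 and 8.32, and 10.2. Member peaks were therefore called often and were of ordinary height, with medians above those of all genes in 3 libraries and below them in 4.

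There were 216 strongest window peaks, 1 for each member and library that called any. Of these, 154 (71.3%) lay within 1 kb of the member's own start, or of its own gene end where no start was given. Such a peak counted here even when nearer to a neighbour. Psme2 summits lay 105 to 243 bp from an end of the Rnf31 span, and Psma4 summits 71 to 163 bp from one of AY074887. A further 26 lay within 1 kb of an end of another gene's span, where an end is either limit and can be that gene's start. Of the rest, 14 lay inside the member's own gene and 22 elsewhere in the window. The last group holds the Psmb3 peaks within 1 kb of an annotated start of Pcgf2. They lay farther than 1 kb from the ends of its span. For members with an annotated start, 56 strongest window peaks lay farther than 1 kb from it. Of these, 16 lay within 1 kb of an annotated start of another gene. Some starts were shared with a neighbour: besides Psma7 with Ss18l1, the start of Sirt3 lay 85 bp from that of Psmd13 and the start of Mrpl32 lay 205 bp from that of Psma2. A peak list has no strand, so calls at these starts count for both neighbours.

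The summits of start peaks lay mostly a short distance inside the gene. The median position, in bp downstream of the nearest annotated start of the gene, was 174 and 180 in the Fed pair, 177 and 166 in the Fasted pair, 232 and 192 in the WT pair, and 197 in Ern1-LKO replicate 2. Over all genes it was 138 and 129, 151 and 163, 20 and 121, and 139. For cytosolic ribosomal protein genes it was 156 and 178.5 in the Fed pair and 194 and 153.5 in the Fasted pair. It was −27.5 and 157 in the WT pair and 157.5 in Ern1-LKO replicate 2. A median position inside the gene was thus shared by the ribosomal protein genes in all of these libraries but WT replicate 1. Members lay downstream in 30 of 32 and 22 of 28 cases in Fed, 23 of 29 and 7 of 9 in the Fasted pair, 9 of 9 and 24 of 27 in the WT pair and 16 of 18 in Ern1-LKO replicate 2. The gap to all genes was widest in WT replicate 1, where 53.3% of all start peaks lay downstream.

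The start peaks of ERAD genes, a group that holds well-known XBP-1 targets, lay elsewhere in several libraries. Their median position was −88 and 63.5 bp in Fed, 148 and 42.5 bp in Fasted, −79 and 46 bp in WT, and 155 bp in Ern1-LKO replicate 2. In WT replicate 1, 0 of 11 ERAD start peaks and 9 of 9 proteasome start peaks lay downstream of the start. Herpud1, the ERAD gene whose upstream sequence is printed above, had its summit 29 to 63 bp upstream of the start in all 8 libraries, over the stretch that holds the second CCACG. Folds of Herpud1 were 29.2 and 41.1 in the Fed pair, 40.5 and 8.21 in the Fasted pair, 18.4 and 32.0 in the WT pair, and 7.22 and 18.5 in Ern1-LKO. No proteasome member reached those Fed folds. The positions in a library come from the same sample, so these are descriptions with no test.

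**Figure D3:**
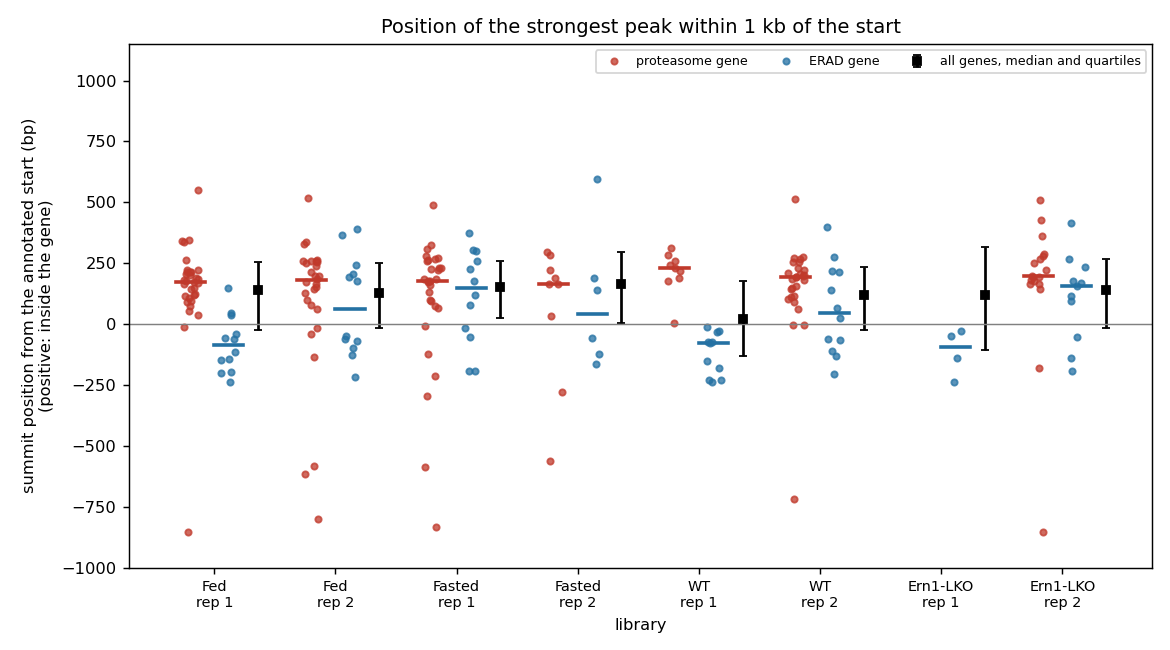
Summit position of the strongest peak within 1 kb of the annotated start, in bp (positive inside the gene), by library, with each proteasome gene in red, each ERAD gene in blue, their medians as bars, and the median and quartiles over all genes in black. In WT replicate 1 the 9 proteasome points lie above the line and the 11 ERAD points below it.

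Positions were repeatable for many members. Leaving out Psmc2, whose summits fell at 2 starts and ranged over 1941 bp, 24 members had a start peak in at least 4 libraries. The summits of 11 stayed within 100 bp of each other across libraries, and the median range was 117 bp. The median position was downstream of the start in 23 and between 50 and 300 bp in 20. The exception upstream was Psme2 (−832 bp). The widest range of the 24 was that of Psma7 (1092 bp).

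**Figure D4:**
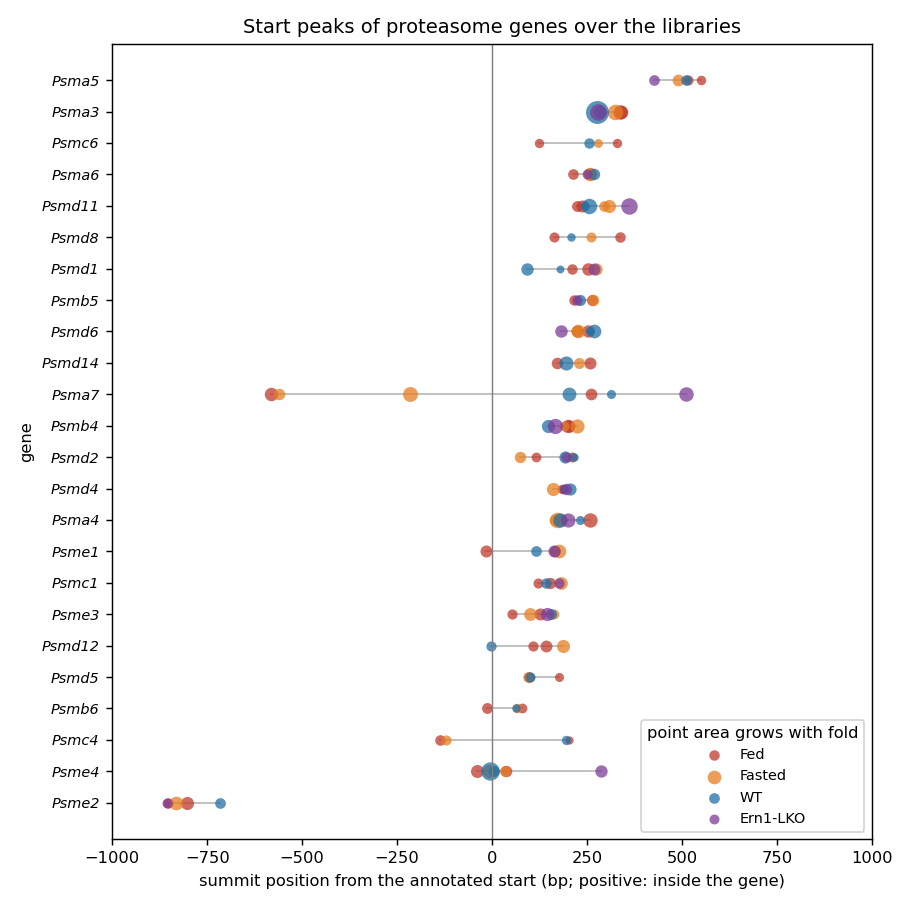
Summit position in bp from the annotated start (positive inside the gene) of the start peaks of the 24 proteasome genes with such a peak in at least 4 libraries and all summits nearest to the same start, 1 point per library, coloured by group, with the point area growing with fold. Most points lie between 50 and 300 bp inside the gene, Psme2 lies 717 to 855 bp upstream, and Psma7 ranges over 1092 bp.

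The motif shares of the members' starts lay close to those of all genes. In windows from 250 bases before to 50 after the start, with 38 windows for the 35 members and 21262 in all, each motif was searched on both strands. ACGTG, the core of UPR elements, was in 21.1% of the members' windows and 20.9% of all windows. CCACG was in 42.1% and 37.4%. The full element TGACGTGG, which overlaps both, was in 0% and 0.705%. CCAAT, the box bound by NF-Y, was in 34.2% and 38.2%. TGACNNNGC, the core of the antioxidant response element used by Nfe2l1 and Nfe2l2, was in 15.8% and 13.0%, and the cyclic AMP element TGACGTCA in 0% and 2.23%. In the 13 windows of ERAD genes ACGTG was in 53.8%, CCACG in 76.9% and TGACGTGG in 7.69%, which is 1 window. In the 9 windows of the genes of the chaperonin CCT these shares were 0%, 88.9% and 0%. The 73 windows of ribosomal protein genes had 31.5%, 43.8% and 0%. A match is a description of these letters and not a binding site, and the ranges of bases under most member summits lie outside these windows, further inside the gene.

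Motifs and calls were not compared over all members, and single members with the same motif differed in their calls. Psmb10 holds CCACGTGG 117 bases before its start and had no start peak in any library. Psmd9 holds it 52 bases before its start and had start peaks in 2 libraries. Psma4 holds it 141 bases before the start and had start peaks in 7. Psmd6 had start peaks in 7 libraries with neither ACGTG nor CCACG in its window. The windows of the members held a median of 19 CpG, beside 21 for ERAD genes, 21 for ribosomal protein genes and 13 over all genes. At least 10 CpG were in 89.5% of them, beside 100%, 93.2% and 56.7%. The part of CpG content in the calls was not tested.

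Genes that assemble the proteasome, carry substrates to it or control its genes were called at least as often as the subunits. Of 27 matched genes, 26 had a window peak in the Fed pair, 19 in the Fasted pair, 14 in the WT pair and 2 in the Ern1-LKO pair, with 27 in Fasted replicate 1, 25 in WT replicate 2 and 25 for Ern1-LKO replicate 2 alone. Nfe2l1, the regulator that raises proteasome gene expression when the protease is inhibited, had folds of 5.82 and 9.24 in the Fed pair, 9.24 and 4.60 in the Fasted pair, 8.50 in WT replicate 2 and 10.6 for Ern1-LKO replicate 2. Vcp, the ATPase that extracts ERAD substrates from the membrane, had a peak in 7 libraries. Pomp, the chaperone that helps the core mature, was called in 5 with folds of 4.91 to 10.6. Ubqln4, a shuttle for ubiquitinated proteins, was the only gene of this list called in all 8, at folds of 4.10 and 23.4 in Ern1-LKO and 8.14 and 21.2 in the WT pair.

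The 17 ERAD genes were called in more of the short lists. The Fed pair called 17, the Fasted pair 12, the WT pair 16 and the Ern1-LKO pair 6, each longer list called 17, and 5 were called in all 8 libraries. Of the 81 cytosolic ribosomal protein genes, another large set of short genes expressed in every cell, 71 were called in the Fed pair, 20 in the Fasted pair, 16 in the WT pair and 1 in the Ern1-LKO pair, with 74 in Fasted replicate 1, 71 in WT replicate 2 and 60 for Ern1-LKO replicate 2 alone. The shares of the proteasome genes lay near those of the ribosomal protein genes in the longer lists, at 90.5% against 87.7% in both Fed libraries. In the short lists they lay well below those of the ERAD genes, at 31.0% against 94.1% in WT replicate 1 and 0% against 35.3% for Ern1-LKO replicate 1. Median gene lengths were 11.9 kb for the members, 26.9 kb for ERAD genes and 3.17 kb for ribosomal protein genes, beside 17.2 kb over all genes, and a longer span gives a wider window.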

How the data were processed

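XBP-1 chromatin immunoprecipitation was sequenced in 8 liver libraries with 2 inputs. By the submitters' processing notes, Bowtie2 2.2.5 and MACS2 2.2.1 were used with build mm10, after bcl2fastq and FastQC 0.11.3. The file headers name MACS 2.1.1.20160309 with a q cutoff of 0.05. The authors deposited for each peak its pileup signal (not used here), its −log10 p and −log10 q, and its fold enrichment, the ratio of pileup to background. The fold and the p-values and q-values are those deposited, and the input libraries entered only through the calls. Deposited peaks were called per library. The 4 pooled lists served only as an alternative.

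Summits were assigned to RefSeq genes of GRCm38.p6, the assembly of mm10, with Python 3.11.15 and pandas 2.3.3. Starts and strands came from the RefSeq promoter sequences. On simulated peaks, 200 of 200 planted window peaks and 200 of 200 start peaks were recovered among 21883 genes. Peaks were ranked by −log10 q. Group differences were exact permutation tests over libraries, which cannot fall below p = 0.33 here, so no p is printed. Alternatives were a 1 kb window, start peaks, −log10 q of at least 5 or 10, fold of at least 5, equal numbers of top peaks, nearest gene only, the pooled lists, a replicate block and leaving out each library. The members and lists were chosen with earlier results of these data known. Every member was named, with full values for the 10 of highest mean percentile and for those that show a role or an exception.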

Additional observations from a re-analysis of the deposited data

How the results depend on the processing

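Counts of members called in both Fed libraries stayed between 28 and 40 under every alternative. The other values depended on 1 library of each pair. Leaving out each library gave 0 to 21 for Fed minus Fasted, with 0 without Fasted replicate 2, and −7.5 to 24.5 for WT minus Ern1-LKO, where −3 came without WT replicate 2 and the lowest value without the short Ern1-LKO list. It gave 18 to 39 members for Fasted (highest without replicate 2), 13 to 36 for WT and 0 to 32 for Ern1-LKO (highest without replicate 1), 1 to 20 for Fed-only (highest without Fasted replicate 1) and 0 to 12 for WT-only (highest without the longer Ern1-LKO list). With a library left out, the group counts and the Fed-only and WT-only counts use 1 library where 2 were required. The differences compare mean counts per library and have no such requirement. In the authors' pooled lists the counts were 37 for Fasted, 32 for WT, 19 for Ern1-LKO, 3 for Fed-only, 14 for WT-only and 1 for Ern1-LKO-only. Shares of all genes with a library left out or in the pooled lists were not counted. Pair shares were also not counted for the q and fold limits, the narrower windows, the nearest gene rule or equal numbers of peaks. The counts under these alternatives therefore show nothing particular to the members. Peaks within 1 kb of the start, or of a gene end where no start was given, left 11 members in both Fasted libraries. WT fell to 2 members at −log10 q of at least 10, to 2 at fold of at least 5 and to 1 at equal numbers of top peaks. At those 698 strongest peaks the WT libraries called 1 and 3 members (2.38% and 7.14%, beside 3.54% and 4.01% of all genes). Fed-only fell to 0 at fold of at least 5. Fasted-only rose to 1 at −log10 q of at least 10 and at equal numbers of top peaks. The cause of these shifts was not tested.

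With the replicate number as a block (replicate block), the paired differences were 10.5 and 8.5, as without it. Libraries with the same number deviated together at r = 0.10 for Fed and Fasted and 0.70 for WT and Ern1-LKO across 21883 genes, which are not independent. With 2 numbers per comparison and no label that ties them, the numbers were not taken to pair the libraries. The list of 698 peaks in Ern1-LKO replicate 1 limits what can be seen there: a member without a peak was not detectable at that depth of calling, which does not show absence of binding.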
